A study of Mus musculus with 33 samples.

Results

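Axin2, Nkd1, Notum, Rnf43, Znrf3, Lgr5, Sp5, Lef1, Tcf7 and Apcdd1 are mouse genes that respond to Wnt/β-catenin signalling and mostly act back on it. These 10 genes were taken by their gene symbols from an expression table of 21671 genes, and all 10 were found in it. The table came from 33 liver RNA libraries of C57BL/6 mice in a study of MYC and β-catenin in liver tumour formation. For the day 4 arm, AAV8-TBG-CRE, a virus that makes Cre recombinase from the hepatocyte promoter TBG, was injected into mice 6 to 8 weeks old, and livers were taken 4 days later. All 4 genotypes of that arm received the virus, with 5 livers each: wild type (WT), the β-catenin exon 3 allele (Ex3), the Cre-activated MYC transgene R26-lslMYC (MYC), and both alleles together (MYC+Ex3). The second arm held nodules from Alb-CreERT2/R26-lslMYC mice (3 MYC tumours), nodules from mice that carried the β-catenin exon 3 allele as well (3 MYC+Ex3 tumours), and 7 WT livers taken 4 days after an injection of 4-hydroxytamoxifen (4-OHT). Alb-CreERT2 is a Cre driven by the albumin promoter that 4-OHT activates. The labels give neither the age nor the treatment of the tumour-bearing mice, they do not say whether the 4-OHT livers carried Cre, and they do not say whether the nodules of a group came from separate animals.

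Wnt ligands bind Frizzled and Lrp5 or Lrp6 receptors and thereby keep β-catenin, encoded by Ctnnb1, from being degraded by the destruction complex. Deletion of exon 3 takes out the residues that mark β-catenin for degradation, so the protein accumulates without a ligand, enters the nucleus and activates genes with TCF/LEF factors. Among the genes it switches on are brakes on the pathway: Axin2 is a scaffold of the destruction complex, Nkd1 binds Dishevelled, Notum is a secreted enzyme that strips the lipid from Wnt ligands, and Rnf43 and Znrf3 are ubiquitin ligases that clear Frizzled from the membrane. Lgr5 is a receptor for R-spondins, which hold Rnf43 and Znrf3 back, and Sp5, Lef1 and Tcf7 are transcription factors. Apcdd1 is a membrane-bound inhibitor of Wnt signalling. In liver the pathway is most active in hepatocytes around the central vein, and Axin2, Lgr5, Notum and Rnf43 are known for expression there.

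The promoters of Axin2, a widely used readout of the pathway, and of Sp5, which had the largest ratio of means below, are shown because TCF/LEF factors recognise short motifs such as CTTTGAT and CTTTGAA. Both are read on the plus strand, from 250 bases before to 50 bases after the annotated start (RefSeq, build GRCm38.p6), with Axin2 at chr11:108920099-108920398 and Sp5 at chr2:70474673-70474972. Capitals mark the only match to either motif on either strand.
Axin2: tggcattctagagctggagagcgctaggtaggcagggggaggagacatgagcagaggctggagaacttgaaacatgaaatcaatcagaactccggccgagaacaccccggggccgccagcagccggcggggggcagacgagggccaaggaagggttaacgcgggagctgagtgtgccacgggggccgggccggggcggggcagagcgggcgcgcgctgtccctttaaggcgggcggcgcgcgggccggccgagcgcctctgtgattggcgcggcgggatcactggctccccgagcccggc
Sp5: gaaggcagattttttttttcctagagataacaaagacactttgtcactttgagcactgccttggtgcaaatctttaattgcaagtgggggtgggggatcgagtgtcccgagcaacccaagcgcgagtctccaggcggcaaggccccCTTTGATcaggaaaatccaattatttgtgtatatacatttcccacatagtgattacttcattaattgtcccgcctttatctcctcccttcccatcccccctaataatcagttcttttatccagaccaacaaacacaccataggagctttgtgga
The match in Sp5 is CTTTGAT, on the plus strand, with its first base at position -104 from the start. Promoters were found for 6 of the 10 genes, 11 promoters in all (Axin2 1, Nkd1 1, Rnf43 2, Sp5 1, Lef1 4 and Tcf7 2), and 1 of these 11, that of Sp5, held a match. Over all 32851 promoters of the same 300 bases, 3.73% held CTTTGAT, 5.14% held CTTTGAA and 8.65% held at least 1 of them. A match describes these letters only, and its absence from the Axin2 window says nothing of sites elsewhere.

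Expression was measured by strand-specific total RNA sequencing of whole liver tissue and given as RPKM, reads scaled by transcript length and library size. Each day 4 library held 3749019 to 7313994 reads assigned to genes, and each library of the tumour arm 6648579 to 9823986 reads, as recovered from the RPKM steps. The 2 arms sit on different RPKM scales, with a highest value of any gene of 220 to 396 at day 4 and of 42.9 to 67.5 in the tumour arm, so levels were compared only within an arm. Hepatocyte markers were high in all 7 groups, with an 8-gene sum of 1056 to 1885 RPKM at day 4 and 195 to 334 RPKM in the tumour arm. Ctnnb1 lay at 107 to 145 RPKM in all 4 day 4 groups and at 20.4 to 32.1 RPKM in the tumour arm, and a sum over the whole gene does not show the loss of 1 exon. The row named Myc lay at 0.748 to 7.72 RPKM at day 4 with overlapping groups, and whether it counts the transgene is not given. Keratin RNA of skin type (Krt5, Krt14 and Krt17 summing to at least 1 RPKM) was found in 3 WT, 3 Ex3, 1 MYC and 3 MYC+Ex3 day 4 libraries.

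Livers 4 and 5 of the MYC group stood apart, in opposite directions, and so did liver 2 of the Ex3 group. MYC liver 4 was the lowest of its group for all 8 of the genes that could be tested at day 4 and the lowest of all 20 day 4 libraries for 7 of them. It was also the only MYC library with keratin RNA, and its sum over 12 pericentral β-catenin targets was 393 RPKM against 691 to 935 RPKM in the other 4 MYC livers. MYC liver 5 was the highest of its group for 7 of the 8 genes. In it 125 genes were over 8 times as high as in any other day 4 library, and its sum over 12 neuron markers, a list chosen after these values were seen, was 123 RPKM against 3.17 to 12.5 RPKM in the other 19. The markers included Elavl4 at 15.4 and Nefl at 15.8 RPKM. Ex3 liver 2 held 27 genes over 8 times as high as any other day 4 library, and its 8-gene cholangiocyte sum was 166 RPKM against 64.6 to 99.9 RPKM in the other 4 Ex3 livers. The part of such other RNA in the values below was not tested, and results that rest on these livers are given with and without them.

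Differences were tested with limma on log2(RPKM + 1), 1 fit per arm, for genes with at least 1 RPKM in at least 3 libraries of the arm, and a gene was called at a Benjamini-Hochberg adjusted p below 0.05 over all genes tested. Each difference is on that log2 scale, which understates the change of genes near 1 RPKM, and is followed by its standard error. Of the 10 genes, 8 were tested in each arm, and Lef1 and Apcdd1 were too low. P-values measure the spread between libraries, and in whole tissue fewer expressing cells and less RNA per cell cannot be told apart.

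At 4 days after Cre, Axin2, Sp5, Lgr5 and Znrf3 were higher in Ex3 than in WT livers, with means 5.55, 7.86, 3.62 and 2.17 times those of WT. These 4 of 8 tested genes passed the test, where 18 of 13688 genes, 0.132%, were called higher and none lower. The other 4, Rnf43, Notum, Nkd1 and Tcf7, had means above WT and adjusted p-values of 0.0851 to 0.725. All 5 Ex3 livers lay above all 5 WT livers for 7 of the 8 genes, all but Nkd1, against 1.03% of all genes tested. The median difference over the 8 genes was 1.19, against 0.01 over all genes.

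Axin2, the scaffold of the destruction complex, lay at 2.73, 3.24, 4.30, 3.40 and 2.92 RPKM in the 5 WT livers and at 24.9, 20.8, 19.7, 16.2 and 10.6 RPKM in the 5 Ex3 livers. Every Ex3 liver was above every WT liver, with the lowest Ex3 value at 10.6 and the highest WT value at 4.30 RPKM. The difference was 2.13 ± 0.35 (adjusted p = 0.0123). MYC livers held 2.08, 3.53, 2.49, 0.513 and 6.99 RPKM, with livers 1, 3 and 4 below and liver 5 above all WT livers. MYC+Ex3 livers held 24.3, 23.7, 11.1, 7.49 and 16.6 RPKM, each above every MYC and every WT liver. Nkd1, the Dishevelled-binding inhibitor, moved less: WT livers held 3.21, 2.06, 3.84, 1.80 and 2.25 RPKM and Ex3 livers 4.46, 6.86, 5.0, 8.12 and 3.66 RPKM, where the lowest Ex3 liver lay under the highest WT liver. Its difference was 0.85 ± 0.26 (adjusted p = 0.464). MYC livers held 1.58, 1.55, 1.79, 0.395 and 2.88 RPKM of Nkd1 and MYC+Ex3 livers 3.24, 3.56, 2.63, 2.38 and 6.15 RPKM, and these groups overlapped.

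Notum, the secreted Wnt deacylase, had the highest mean RPKM of the 10 genes in WT liver, with values of 37.6, 37.6, 59.1, 22.4 and 33.2 RPKM. Ex3 livers held 68.6, 67.1, 79.6, 87.4 and 64.5 RPKM, all above the WT range, with a difference of 0.99 ± 0.36 (adjusted p = 0.671) that did not pass. MYC livers held 13.1, 23.7, 26.6, 4.57 and 30.3 RPKM, with 3 of the 5 within the WT range and livers 1 and 4 below it. In MYC+Ex3 livers Notum stood at 54.2, 53.5, 58.5, 33.9 and 84.7 RPKM, above all MYC livers but overlapping the WT livers.

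Rnf43 and Znrf3, the membrane ubiquitin ligases, are close relatives with the same role. Rnf43 lay at 11.2, 17.9, 13.6, 6.65 and 13.5 RPKM in WT and at 29.5, 32.8, 41.7, 41.7 and 21.0 RPKM in Ex3 livers. The groups did not overlap, and the difference was 1.36 ± 0.30 (adjusted p = 0.0851), short of the threshold. Znrf3 lay at 5.68, 8.28, 8.42, 4.75 and 6.66 RPKM in WT and at 10.8, 15.4, 18.1, 16.5 and 12.3 RPKM in Ex3 livers, a smaller difference of 1.02 ± 0.19 (adjusted p = 0.0258) with a smaller error. In MYC livers Rnf43 stood at 8.08, 13.6, 9.90, 3.94 and 17.0 RPKM and Znrf3 at 7.81, 7.92, 7.24, 5.33 and 8.52 RPKM, both overlapping WT. MYC+Ex3 livers held 33.2, 31.4, 30.1, 18.9 and 35.9 RPKM of Rnf43 and 16.3, 16.3, 12.9, 10.2 and 20.5 RPKM of Znrf3, each group above all MYC livers.

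Lgr5, the R-spondin receptor that marks stem cells in the intestine, lay at 1.95, 2.98, 3.30, 1.81 and 6.72 RPKM in WT livers, where liver 5 stood above the other 4. Ex3 livers held 9.24, 11.9, 14.9, 17.1 and 7.63 RPKM, and even the lowest was above that WT liver. The difference was 1.64 ± 0.32 (adjusted p = 0.0406), with a 95% interval of 0.98 to 2.31. MYC livers held 1.86, 3.14, 3.0, 0.478 and 3.52 RPKM and MYC+Ex3 livers 11.1, 8.53, 8.88, 5.64 and 14.6 RPKM, which overlapped WT only through the high WT liver and through MYC+Ex3 liver 4.

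Sp5, a zinc finger factor that acts as a repressor at Wnt target genes, had the largest ratio of means among the tested genes, from 0.946 ± 0.503 RPKM (SD, n = 5) in WT to 7.44 ± 2.28 RPKM (SD, n = 5) in Ex3 livers. The WT livers held 0.886, 0.535, 1.73, 0.490 and 1.09 RPKM, from 5 to 22 reads, and the Ex3 livers 8.86, 5.04, 9.45, 8.97 and 4.85 RPKM. The lowest Ex3 liver was above the highest WT liver, and the difference was 2.11 ± 0.29 (adjusted p = 0.00352). MYC livers held 0.726, 2.28, 0.543, 0.105 and 1.5 RPKM and MYC+Ex3 livers 12.3, 7.43, 8.90, 3.74 and 7.33 RPKM, again without overlap. Tcf7, which encodes TCF1 and is best known from T cells, was at 3.64, 4.06, 3.84, 2.89 and 4.13 RPKM in WT and 4.46, 5.99, 8.49, 6.88 and 5.42 RPKM in Ex3 livers. Its Ex3 values all lay above the WT values by a narrow margin, and the difference of 0.60 ± 0.22 (adjusted p = 0.725) did not pass. MYC livers held 2.60, 2.44, 3.87, 1.30 and 5.52 RPKM of Tcf7 and MYC+Ex3 livers 8.04, 10.3, 6.21, 5.51 and 8.44 RPKM, the highest mean of the 4 groups.

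Lef1 and Apcdd1 stayed too low to test. Lef1, the other lymphoid TCF/LEF factor here, lay between 0.270 and 0.708 RPKM in 19 of the 20 day 4 libraries, with means of 0.449, 0.534, 0.669 and 0.385 RPKM in WT, Ex3, MYC and MYC+Ex3 livers. The exception was MYC liver 5 at 1.78 RPKM (91 reads), the library rich in neuron markers. Apcdd1 had 0 to 11 reads per day 4 library, so a difference was not detectable at this depth. A 12-gene T cell sum overlapped between the 4 groups at 6.00 to 14.9 RPKM, and its part in Tcf7 and Lef1 was not tested.

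**Figure D1:**
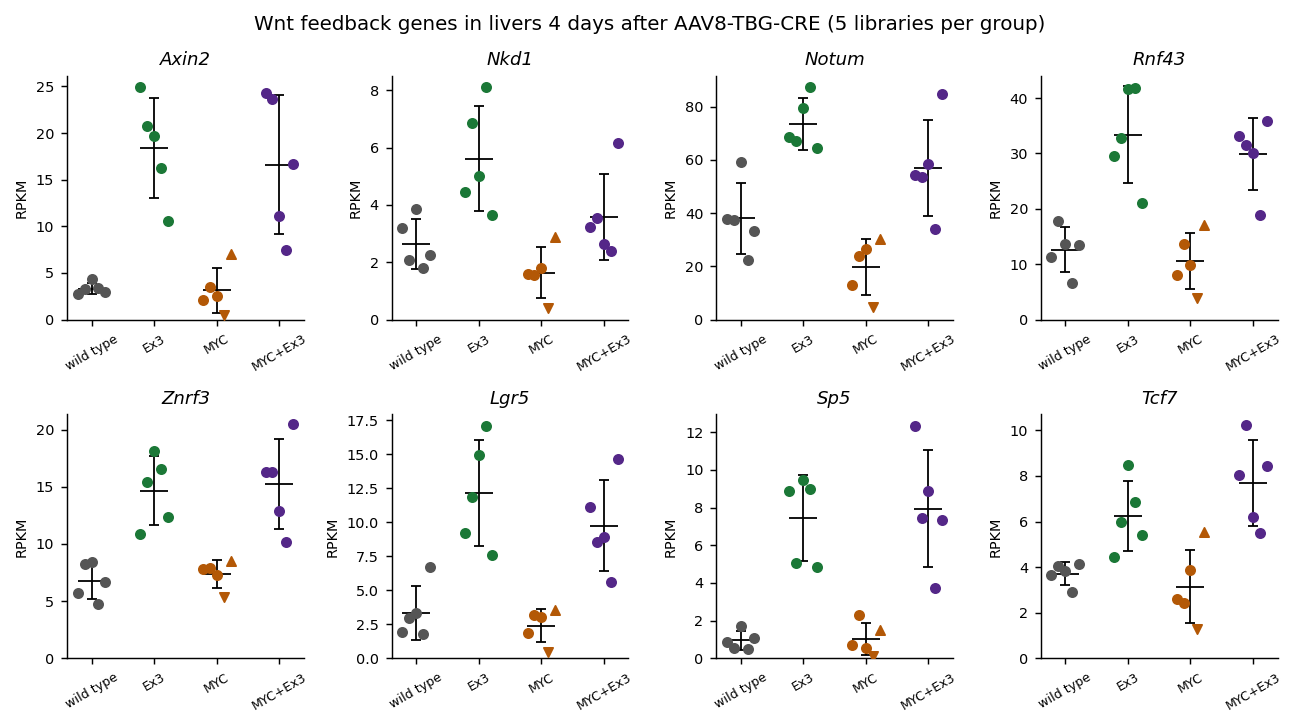
RPKM (linear axis) of the 8 tested genes in each of the 20 day 4 livers, by genotype, with black bars for the group mean ± SD and downward and upward triangles for MYC livers 4 and 5. For Axin2, Sp5, Lgr5, Rnf43, Znrf3, Notum and Tcf7 all 5 Ex3 livers sit above all 5 WT livers, and MYC liver 4 is the lowest MYC point in every panel.

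Split by keratin RNA, the Ex3 differences kept their sign on both sides. Axin2 differed by 2.42 (adjusted p = 0.236) among the 2 Ex3 and 2 WT keratin-free livers and by 1.94 (adjusted p = 0.0947) among the 3 and 3 with keratin RNA. The pairs of values, without and with keratin RNA, were 1.77 and 2.33 for Sp5, 1.69 and 1.62 for Lgr5, and 0.81 and 1.15 for Znrf3. None of the 8 genes was called within either side, where fewer livers entered. With keratin RNA as a term in the fit of all 20 livers, the same 4 genes were called, Axin2 at 2.13 (adjusted p = 0.00243), Sp5 at 2.11 (adjusted p = 0.00243), Lgr5 at 1.64 (adjusted p = 0.0400) and Znrf3 at 1.02 (adjusted p = 0.0209). With 1 Ex3 or WT liver left out at a time, Sp5 was called every time, Axin2 9 of 10 times, Znrf3 4 of 10 and Lgr5 2 of 10. The count of called genes among the 8 was 2 without WT liver 1, WT liver 4, Ex3 liver 2 or Ex3 liver 4 and 1 without Ex3 liver 3. Over all genes the number called higher ran from 5 to 19 with 1 of these livers left out. Without Ex3 liver 2, Axin2 was 2.08 (adjusted p = 0.0451) and Sp5 2.21 (adjusted p = 0.00560), while Lgr5 was 1.64 (adjusted p = 0.102) and Znrf3 0.99 (adjusted p = 0.0805). Over all alternatives the adjusted p of Axin2 ran from 0.00243 to 0.236. The authors' deposited table calls 7 of the genes higher in Ex3 livers, all tested here but Tcf7. That table rests on the same libraries, and its calls over all genes were not counted here. Its log2 fold changes include 1.79 (adjusted p = 1.01e-26) for Axin2, 0.91 (adjusted p = 2.25e-05) for Rnf43 and 0.71 (adjusted p = 0.000876) for Notum.

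In livers with MYC alone none of the 8 genes was called higher than in WT livers. Notum was the only 1 called, and it was lower, with a difference of -1.08 ± 0.36 (adjusted p = 0.0335) and means of 19.7 ± 10.6 RPKM (SD, n = 5) and 38 ± 13.3 RPKM (SD, n = 5). Among all genes 5.36% were called lower, 734 genes, and 2313 higher, and with a median-ratio rescaling these counts were 1302 and 1882. Without MYC liver 4 the Notum difference was -0.67 (adjusted p = 0.0876), without MYC liver 5 -1.29 (adjusted p = 0.0131), and among the keratin-free livers -1.04 (adjusted p = 0.0479). Notum was also not called without WT liver 1, 2, 3 or 5 or MYC liver 1, and its adjusted p ran from 0.0111 to 0.104 over all alternatives. No value exists among livers with keratin RNA, which include 1 MYC liver. Axin2 differed by -0.26 (adjusted p = 0.649) and Nkd1 by -0.50 (adjusted p = 0.171). The sign for Axin2 turned on 1 library: it was 0.05 without MYC liver 4 and -0.55 without MYC liver 5. The other 5 genes lay between -0.36 and 0.12.

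**Figure D2:**
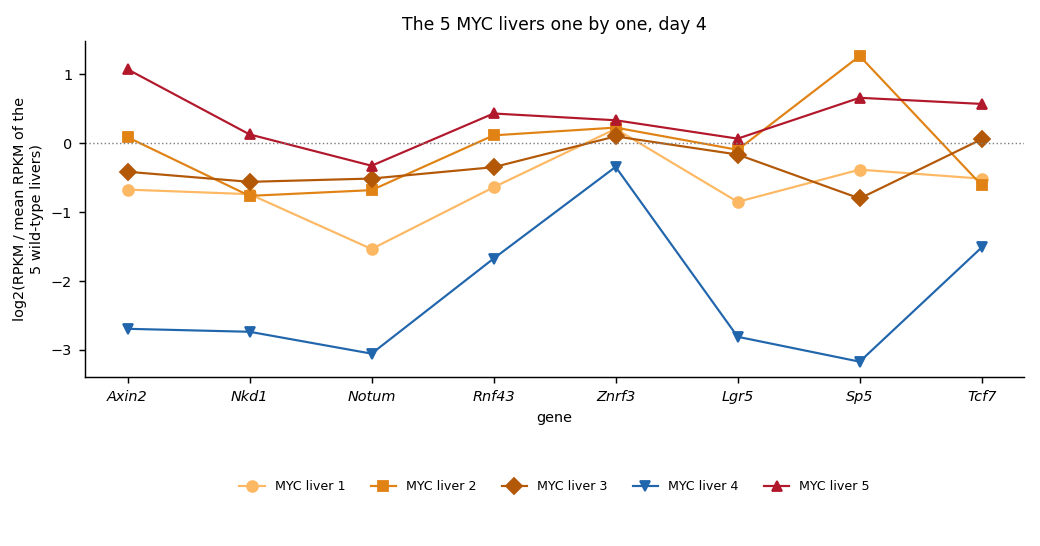
Log2 ratio of RPKM in each of the 5 MYC livers to the mean of the 5 WT livers, 1 line per liver, for the 8 tested genes. MYC liver 4 lies at the bottom for every gene and MYC liver 5 at the top for 7 of 8, so these 2 libraries form the ends of the range for most genes.

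With the exon 3 allele added to MYC, 6 of the 8 genes were higher than in MYC livers: Axin2 by 2.18 ± 0.35 (adjusted p = 0.00906), Sp5 by 2.17 ± 0.29 (adjusted p = 0.00176), Lgr5 by 1.71 ± 0.32 (adjusted p = 0.0323), Rnf43 by 1.52 ± 0.30 (adjusted p = 0.0345), Tcf7 by 1.13 ± 0.22 (adjusted p = 0.0376) and Znrf3 by 0.94 ± 0.19 (adjusted p = 0.0376). Over all genes 26, or 0.190%, were called higher and none lower. All MYC+Ex3 livers lay above all MYC livers for 6 of the 8 genes, all but Tcf7 and Nkd1, against 0.497% of all genes. Notum, at 1.66 (adjusted p = 0.0642), and Nkd1, at 0.82 (adjusted p = 0.693), did not pass. The calls changed with the library left out, and so did those over all genes, which ran from 7 to 33 called higher. Without MYC liver 4, 2 of the 8 genes were called, Axin2 at 1.87 (adjusted p = 0.0219) and Sp5 at 1.97 (adjusted p = 0.00739), and 10 over all genes. Without MYC liver 5, 7 of the 8 were called, with Notum at 1.87 (adjusted p = 0.0402), and 25 over all genes. Among the keratin-free livers, 2 MYC+Ex3 against 4 MYC, 1 gene was called, Axin2 at 2.49 (adjusted p = 0.0451), while Sp5 was 2.29 (adjusted p = 0.0727). With keratin RNA as a term in the fit 7 were called, Nkd1 not. The count among the 8 genes was also 2 without MYC liver 1 or 3 or MYC+Ex3 liver 1, 2, 3 or 5, and 7 without MYC+Ex3 liver 4. Over all alternatives the adjusted p ran from 0.000605 to 0.190 for Axin2, from 0.000291 to 0.0727 for Sp5 and from 0.00478 to 0.571 for Notum.

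Against WT livers, which the Ex3 and MYC comparisons also used, MYC+Ex3 livers had 6 of the 8 genes higher, with Sp5 at 2.16 (adjusted p = 1.72e-05), Axin2 at 1.92 (adjusted p = 0.000408), Lgr5 at 1.35 (adjusted p = 0.00388), Rnf43 at 1.21 (adjusted p = 0.00480), Znrf3 at 1.06 (adjusted p = 0.000281) and Tcf7 at 0.86 (adjusted p = 0.00801). That comparison called 17.9% of all genes higher. Nkd1 at 0.31 (adjusted p = 0.406) and Notum at 0.58 (adjusted p = 0.251) did not pass, and Nkd1 was -0.04 among the keratin-free livers. Among the livers with keratin RNA, Rnf43 at 1.15 (adjusted p = 0.0666) and Lgr5 at 1.19 (adjusted p = 0.0910) were not called. Between MYC+Ex3 and Ex3 livers none of the 8 genes passed, although 21.1% of all genes did: the differences ran from -0.54 for Nkd1 (adjusted p = 0.149) to 0.26, and 1 gene, Nkd1, had an unadjusted p below 0.05. The intervals remain wide, at -0.94 to 0.52 for Axin2 and -1.15 to 0.33 for Notum. A test of whether the exon 3 effect itself differed with MYC called 0 of the 8 genes and 0% of the 13688 (132 genes and none of the 8 had an unadjusted p below 0.05), with the largest value, 0.67, for Notum and an interval of -0.38 to 1.72. With 1 library left out at a time the Notum value ran from 0.26 to 0.88. That of Tcf7, 0.53 with all libraries, ran from 0.33 to 0.71. Both were lowest without MYC liver 4.

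Ordered by mean RPKM, Axin2 ran from 18.4 ± 5.37 RPKM (SD, n = 5) in Ex3 through 16.6 ± 7.46 RPKM (SD, n = 5) in MYC+Ex3 and 3.32 ± 0.609 RPKM (SD, n = 5) in WT to 3.12 ± 2.42 RPKM (SD, n = 5) in MYC livers. Lgr5 had the same order, at 12.2 ± 3.91 RPKM (SD, n = 5), 9.76 ± 3.35 RPKM (SD, n = 5), 3.35 ± 1.99 RPKM (SD, n = 5) and 2.40 ± 1.24 RPKM (SD, n = 5). For both genes the values overlapped within the 2 exon 3 groups and within the 2 groups without the allele, and neither of those neighbour differences passed the test.

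For Axin2, Notum and Tcf7 the tumours of the 2 genotypes lay on opposite sides of the 4-OHT livers. In this arm Nkd1, Lgr5 and Sp5 reached the level needed for a test only through the MYC+Ex3 tumours, so they are left out of the counts, and the counts cover Axin2, Notum, Rnf43, Znrf3 and Tcf7. In MYC tumours 4 of these 5 were lower than in the 4-OHT livers: Notum at -2.56 ± 0.21 (adjusted p = 9.45e-07), Rnf43 at -1.05 ± 0.29 (adjusted p = 0.00845), Axin2 at -0.81 ± 0.17 (adjusted p = 0.00154) and Tcf7 at -0.70 ± 0.12 (adjusted p = 0.000436). Nkd1 differed by -0.68 ± 0.18 and Lgr5 by -0.56 ± 0.12, and no test is given for them because of that filter. Against only the 3 4-OHT livers whose titles carry numbers beginning with S15, Nkd1 was -0.62. Over all genes 13.7% were called lower and 36.2% higher, 1621 and 4286 genes, and with a median-ratio rescaling 2764 and 3212, which moved the median of all genes from 0.19 to 0.01. All 3 MYC tumours lay below all 7 livers for Axin2, Notum and Tcf7, 3 of the 5, against 8.89% of all genes. Znrf3 ran the other way, at 0.45 (adjusted p = 0.0211), and was 0.30 (adjusted p = 0.115) after the rescaling, 0.34 (adjusted p = 0.191) against the S15 livers, 0.37 (adjusted p = 0.0884) without MYC tumour 2 and 0.31 (adjusted p = 0.140) without MYC tumour 3. Its adjusted p ran from 0.000692 to 0.191 over all alternatives. Between these groups the authors' deposited table does not call Rnf43, at -1.17 (adjusted p = 0.0904), or Znrf3, at 0.46 (adjusted p = 0.116). It calls Axin2, Notum and Tcf7 lower, and its calls over all genes were not counted here.

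Markers of other cell types moved with these groups. Of 8 macrophage markers 6 were lower in MYC tumours than in 4-OHT livers and 5 in MYC+Ex3 tumours, with sums of 117 to 160 RPKM in the livers, 37.8 to 129 in MYC tumours and 66.2 to 77.4 in MYC+Ex3 tumours. Of 8 endothelial markers 5 and 6 were lower, with sums of 48.6 to 79.5, 29.0 to 44.8 and 29.5 to 33.4 RPKM. Of 8 stellate cell and fibroblast markers 2 were higher and 3 lower in MYC tumours, and 1 higher and 5 lower in MYC+Ex3 tumours. Lower in MYC and MYC+Ex3 tumours were 0 and 4 of 8 hepatocyte markers and 0 and 2 of 3 tested cholangiocyte markers. Over all genes 13.7% were called lower in MYC tumours and 18.4% in MYC+Ex3 tumours. None of these markers was at 0 throughout a group, and their part in the values of the feedback genes was not tested.

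In MYC+Ex3 tumours Axin2, Notum, Rnf43, Znrf3 and Tcf7, the 5 genes counted, were all called higher than in MYC tumours, where 2.02% of all genes were, and higher than in 4-OHT livers, where 42.3% were. Their differences to MYC tumours were 3.35 ± 0.24 (adjusted p = 1.34e-06) for Notum, 3.0 ± 0.20 (adjusted p = 9.09e-07) for Axin2, 2.35 ± 0.15 (adjusted p = 6.01e-07) for Tcf7, 2.11 ± 0.34 (adjusted p = 0.00262) for Rnf43 and 1.37 ± 0.18 (adjusted p = 0.000386) for Znrf3. For each of the 5, all MYC+Ex3 tumours lay above all MYC tumours, against 8.59% of all genes. To the 4-OHT livers, which both tumour comparisons share, they were 2.20 for Axin2, 1.82 for Znrf3, 1.66 for Tcf7, 1.06 (adjusted p = 0.00564) for Rnf43 and 0.79 (adjusted p = 0.00450) for Notum. The calls against the 4-OHT livers were lost for Notum at 0.84 (adjusted p = 0.0588) and for Rnf43 at 1.27 (adjusted p = 0.0638) with a pseudocount of 0.1, and for Rnf43 at 0.78 (adjusted p = 0.103) against the S15 livers. Between the tumours Rnf43 was 2.11 (adjusted p = 0.0980) in a fit of those 2 groups alone.

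Axin2 held 0.332, 0.660 and 0.0946 RPKM in the 3 MYC tumours and 10.7, 7.63 and 11.3 RPKM in the 3 MYC+Ex3 tumours, and ran from 0.793 through a median of 1.39 to 2.0 RPKM over the 7 4-OHT livers. The 3 groups did not overlap, and the mean of the MYC+Ex3 tumours was 27.3 times that of the MYC tumours. Nkd1 showed the same order, with 0.113, 0.352 and 0.0547 RPKM in MYC tumours, 6.10, 2.63 and 5.90 RPKM in MYC+Ex3 tumours and 0.684 to 1.13 RPKM in 4-OHT livers, and its means differed 28.1-fold between the tumours.

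Notum had the largest difference between the tumours on the log2(RPKM + 1) scale. Its ratio of tumour means, 19.3, was below those of Axin2, Nkd1 and Lgr5, at 27.3, 28.1 and 27.8. MYC tumours held 0.494, 1.90 and 0.243 RPKM, MYC+Ex3 tumours 17.6, 14.2 and 19.1 RPKM, and the 4-OHT livers ran from 8.08 through a median of 8.88 to 11.8 RPKM. Every MYC tumour lay below every liver, and every MYC+Ex3 tumour above. Within the MYC tumours, tumour 2 was highest for 6 of the 8 genes and tumour 3 lowest for 6.

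Rnf43 was the least even of the set in MYC tumours, at 2.78, 0.801 and 0.0827 RPKM (479, 224 and 22 reads). Tumour 1 lay inside the range of the 4-OHT livers, 2.15 to 4.51 RPKM, and tumours 2 and 3 lay below it. Without MYC tumour 3 the difference from 4-OHT livers was -0.62 (adjusted p = 0.0740), and against the 4 4-OHT livers with S14 numbers it was -0.84 (adjusted p = 0.0647), with a range of adjusted p from 0.000122 to 0.0740 over all alternatives. MYC+Ex3 tumours held 8.10, 5.64 and 8.81 RPKM. In the authors' deposited table the Rnf43 log2 fold change between the tumours is 0.87 (adjusted p = 0.306), which does not pass, where the fit here gave 2.11 (adjusted p = 0.00262). Its partner Znrf3 behaved differently: MYC tumours held 1.68, 3.06 and 3.45 RPKM against 1.23 to 2.13 RPKM in 4-OHT livers, and MYC+Ex3 tumours 8.76, 7.41 and 9.18 RPKM. Its ratio between the tumour means, 3.10, was the smallest of the 8 genes.

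Lgr5 in MYC tumours lay at 0.0708, 0.249 and 0.0392 RPKM and in MYC+Ex3 tumours at 3.77, 2.59 and 3.60 RPKM. The 4-OHT livers lay between, from 0.505 through a median of 0.674 to 0.783 RPKM. The ratio of the tumour means was 27.8. Sp5 had 0, 3 and 1 reads in the 3 MYC tumours and 2.86, 2.95 and 4.69 RPKM in the MYC+Ex3 tumours, against 0.0637 to 0.274 RPKM in 4-OHT livers. No ratio is given for so few reads. On the log2 scale Sp5 in MYC tumours differed from 4-OHT livers by -0.21. No test is given for it, because Sp5 passed the filter only through the MYC+Ex3 tumours. The authors' deposited table gives a log2 fold change of -2.44 (adjusted p = 0.000274) for the same pair of groups.

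Tcf7 lay at 0.340, 0.552 and 0.300 RPKM in MYC tumours, at 5.80, 5.20 and 7.55 RPKM in MYC+Ex3 tumours and at 1.06 to 1.66 RPKM in 4-OHT livers, with no overlap. The T cell sum ran the other way in MYC+Ex3 tumours, at 2.07 to 2.81 RPKM against 3.18 to 5.50 in 4-OHT livers and 1.68 to 7.76 in MYC tumours, with none of the 12 markers at 0 throughout a group. Lef1 held 0.0713, 0.108 and 0.0958 RPKM in MYC tumours and 0.696, 0.162 and 0.352 RPKM in MYC+Ex3 tumours. It lay at 0.0919 to 0.212 RPKM in 4-OHT livers, and MYC+Ex3 tumour 2 fell within that range. Apcdd1 had 0 to 31 reads per library of this arm, with means of 0.0341, 0.0828 and 0.163 RPKM in 4-OHT livers, MYC and MYC+Ex3 tumours. In a fit with no filter on low values, MYC+Ex3 tumours differed from 4-OHT livers by 0.29 (adjusted p = 0.0124) for Lef1 and 0.16 (adjusted p = 0.00780) for Apcdd1. That fit called 30.2% of all genes higher in the same comparison, and Apcdd1 had 0 to 7 reads per 4-OHT liver. In it Lef1 differed between the tumours by 0.35 (adjusted p = 0.0890).

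**Figure D3:**
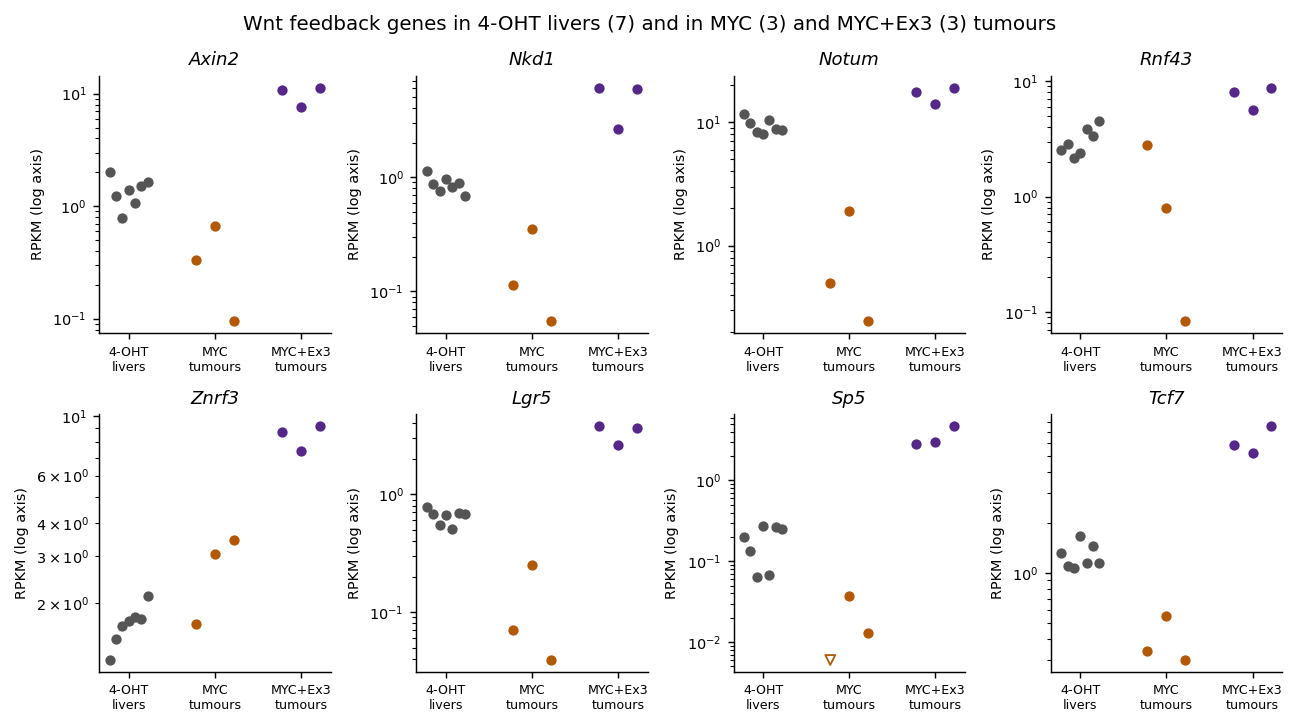
RPKM on a log axis of the members in each of the 7 4-OHT livers, 3 MYC tumours and 3 MYC+Ex3 tumours, with the open triangle for Sp5 listed at 0 in MYC tumour 1. For Axin2, Nkd1, Notum, Lgr5 and Tcf7 the MYC tumours lie below and the MYC+Ex3 tumours above all 4-OHT livers, while for Znrf3 the MYC tumours do not lie below them.

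**Figure D4:**
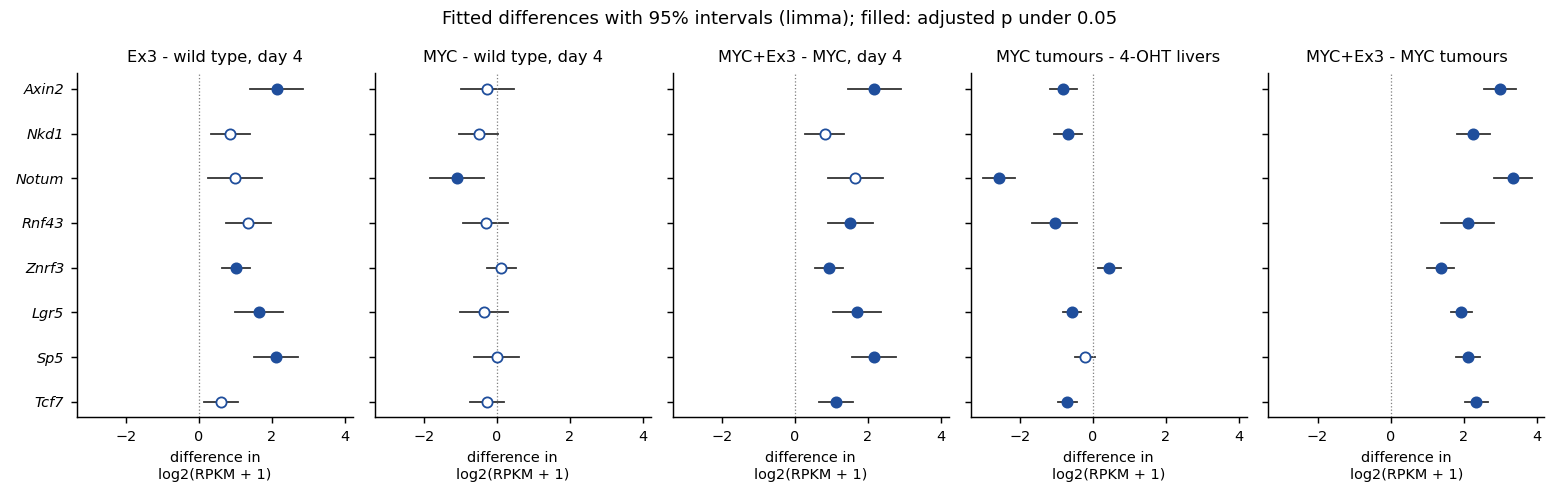
Differences on the log2(RPKM + 1) scale with 95% confidence intervals for the 8 tested genes in 5 comparisons, filled where the adjusted p is below 0.05. At day 4 the exon 3 differences are positive in all 8 genes. In the tumours they are positive in the 5 genes counted. Nkd1, Lgr5 and Sp5 are drawn in the tumour panels although they passed the filter only through the MYC+Ex3 tumours. Their fill in those panels is not a call.

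Other genes of the pathway were counted by their roles. At day 4, none of the tested ligands and R-spondins (7 of 23), receptors (12 of 17), secreted antagonists (5 of 14), destruction complex genes (14 of 15) or nuclear partners (12 of 13) was called between Ex3 and WT or between MYC+Ex3 and MYC livers. Of 12 pericentral β-catenin targets, all tested, 2 were higher in Ex3 than in WT livers, Slc1a4, a neutral amino acid transporter, by 2.05 (adjusted p = 0.0123) and Rhbg, an ammonium transporter, by 1.72 (adjusted p = 0.0241). Between MYC+Ex3 and MYC livers 5 of the 12 were higher, with Slc1a2, a glutamate transporter, at 2.40 (adjusted p = 0.0346), Rhbg at 2.14, Slc1a4 at 1.80, Lhpp, a phosphatase gene, at 1.53 and Gulo, of vitamin C synthesis, at 0.87. Over all genes 0.132% were called higher in Ex3 than in WT livers and 0.190% in MYC+Ex3 than in MYC livers. MYC livers had 9 of the 12 lower than WT livers, where 5.36% of all genes were, and MYC tumours had all 12 lower than 4-OHT livers, where 13.7% were. Without MYC liver 4, 5 of the 12 were lower in MYC than in WT livers and 2 were higher in MYC+Ex3 than in MYC livers. Among the keratin-free livers these counts were 1 and 2, and with 1 library left out at a time they ran from 5 to 9 and from 1 to 5. The 2 calls in Ex3 livers became 0 without Ex3 liver 3 or 4.

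Against the 4-OHT livers many pathway genes were called in the tumours. MYC tumours had 3 of 4 tested ligands lower, 1 of 10 receptors higher and 3 lower, 6 of 14 destruction complex genes higher, and 2 of 11 nuclear partners higher and 3 lower. MYC+Ex3 tumours had 3 of 4 ligands lower, 2 of 10 receptors higher and 5 lower, 8 of 14 destruction complex genes higher, and 3 of 11 nuclear partners higher and 2 lower. The remaining ligand, Wnt4, lay higher in MYC+Ex3 tumours and passed the filter only through them, as given below. Over all genes 36.2% were called higher and 13.7% lower in MYC tumours, and 42.3% higher and 18.4% lower in MYC+Ex3 tumours.

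Between the tumours, single genes of the pathway differed. Wnt4, a Wnt ligand, held 10.4, 6.17 and 13.1 RPKM in MYC+Ex3 tumours and 0.114, 0.772 and 0.123 RPKM in MYC tumours, against 0.194 to 0.758 RPKM in 4-OHT livers. None of the other 3 tested ligands was called. Dkk3, a secreted protein of the Dickkopf family, held 5.84, 2.89 and 13.9 RPKM in MYC+Ex3 tumours and 0.532, 1.51 and 0.880 RPKM in MYC tumours. Wnt4 and Dkk3 passed the filter only through the MYC+Ex3 tumours, so no test is given for them. Of 10 tested receptors, the co-receptor Lrp5 was higher at 0.95 (adjusted p = 0.0280) and Fzd4 lower at -0.71 (adjusted p = 0.00443). Of 14 destruction complex genes 1, the kinase gene Csnk1e, was higher at 0.56 (adjusted p = 0.0467), and none of 11 nuclear partners was called. Tnfrsf19 (TROY), a Wnt target in other tissues, was higher in MYC+Ex3 tumours at 3.0 (adjusted p = 1.34e-06) and in MYC+Ex3 livers over MYC livers at 1.48 (adjusted p = 0.0345). Pericentral targets were higher in MYC+Ex3 than in MYC tumours for 9 of 12, where 2.02% of all genes were. The 8 with the smallest p were Rhbg (3.72), Tbx3 (2.27), Slc1a2 (3.37), Lect2 (2.56), Slc1a4 (1.89), Glul (1.46), Lhpp (2.46) and Gulo (2.07). Against the 4-OHT livers 4 of the 12 were higher and 1 was lower in MYC+Ex3 tumours, where 42.3% and 18.4% of all genes were.

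Genes were also ranked by how closely they followed Axin2, by the lower of 2 Pearson correlations of log2(RPKM + 1), 1 over the 20 day 4 libraries and 1 over the 13 of the tumour arm. The libraries share genotype and depth, so the correlations are descriptions. Among 10661 genes ranked, the 5 most alike outside the 10 were Rhbg (r of 0.893 and 0.912), Tbx3, a T-box factor (0.883 and 0.870), Slc1a4 (0.854 and 0.861), Slc25a21, a mitochondrial carrier (0.836 and 0.839), and Aspscr1 (0.820 and 0.818). Tbx3 lay at 10.3 ± 0.961 RPKM (SD, n = 5) in WT, 23.2 ± 5.94 RPKM (SD, n = 5) in Ex3, 5.42 ± 2.90 RPKM (SD, n = 5) in MYC and 16.2 ± 5.71 RPKM (SD, n = 5) in MYC+Ex3 livers. In the tumour arm it held 0.0640 to 0.964 RPKM in MYC and 4.68 to 7.70 RPKM in MYC+Ex3 tumours. Among the 10 genes, the values were 0.905 and 0.994 for Lgr5, 0.931 and 0.839 for Rnf43, 0.876 and 0.986 for Tcf7, 0.890 and 0.804 for Znrf3, 0.811 and 0.978 for Nkd1 and 0.834 and 0.761 for Notum, while Sp5 was too low in the tumour arm to be ranked. Aspscr1 is the next protein-coding gene after Notum in the RefSeq order, and whether the counting split reads between neighbours is not given.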

How the data were processed

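RPKM per gene was made by the authors before deposit. The submitters' processing notes name TopHat2 2.0.8, SAMtools, featureCounts 1.4.5-p1, DESeq2 and the mouse build mm9, with no roles, and the strand setting of the counting is not given in the sources used here. The log2 fold changes and adjusted p-values of the authors' deposited table are quoted only where it is named. Reads were recovered from the RPKM steps: all 20485 genes with reads came out as whole numbers (100%, tolerance 0.05 reads), and 1186 genes were at 0 in every library.

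Groups were taken from the labels. limma 3.58.1 in R 4.3.3 was fitted with an intensity trend to log2(RPKM + 1), over the 20 day 4 libraries (13688 genes) and the 13 libraries of the tumour arm (11854 genes), with no covariates, and tested on simulated data. No pair of libraries held identical values over the 10 genes. The pathway and marker lists, like the 10 genes, were chosen with earlier results of these data known. Every tested member is named, and other genes only as the members of a list called in a comparison (at most the 8 with the smallest p) or as the 5 genes most like Axin2. Promoters came from RefSeq, GRCm38.p6, and no coordinate was converted from mm9.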

Additional observations from a re-analysis of the deposited data

Results flagged for a closer look

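Each of the 10 genes was checked in the 5 groups of 5 or 7 livers for a single library far from the rest, 50 checks in all, and 1 gave such a library: Lef1 in MYC liver 5, at 1.78 RPKM (91 reads) against 0.289 to 0.449 RPKM in the other 4 MYC livers. Chance gives about 1 such library in 20 checks. The same library held the 125 genes and the neuron marker sum described above, and Wnt3, a Wnt ligand, at 2.93 RPKM (61 reads) where the other 4 MYC livers had 0. The part of the neuronal RNA in the Lef1 value was not tested.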

How the results depend on the processing

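Of 935 values of single genes under an alternative, 830 kept their direction and their side of the threshold, 96 lost the call, 7 gained it and 2 changed sign. The 2 were Axin2 between MYC and WT livers, which ran from -0.55 to 0.052 with 1 library left out at a time, and Nkd1 between MYC+Ex3 and WT livers, at -0.0387 among the keratin-free libraries. The 935 values include Nkd1, Lgr5 and Sp5 in the tumour arm, where these genes passed the filter only through the MYC+Ex3 tumours. For these genes in that arm the total therefore says nothing of stability. Of the 4 genes called between Ex3 and WT livers, 2 were called with only those groups in the fit, 0 among the keratin-free and 0 among the keratin-bearing libraries, and 1 to 4 with 1 library left out (1 without Ex3 liver 3). The Notum call between MYC and WT livers gave a count of 0 with no filter on low values, 0 with only those groups, and 0 to 1 with 1 library left out. Of the 6 called between MYC+Ex3 and MYC livers, 2 were called with a pseudocount of 0.1, 2 with no filter, 1 with only those groups and 1 among the keratin-free libraries. With 1 library left out that count ran from 2 to 7, and was 2 in 7 of 10 cases. In the tumour arm a filter of at least 5 RPKM left 5 genes, called 5 of 5 between MYC+Ex3 tumours and both other groups, but 4 of them, all but Notum, passed it only through the MYC+Ex3 tumours, so this says nothing of stability. Where fewer libraries or genes entered, that is part of the alternative, and otherwise the cause was not tested. With sex as a covariate, read from Xist and Ddx3y, 5 genes were called between Ex3 and WT livers and 7 between MYC+Ex3 and MYC livers. No paired analysis was possible because the replicate numbers were given here and pair no samples. Some low values rest on few reads, such as 0 to 3 for Sp5 in MYC tumours, and limit Lef1, Apcdd1 and Sp5. In the tumour arm a value under 1 RPKM can rest on many more, such as 119 to 214 reads for Lgr5 in 4-OHT livers.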
